A study of Mus musculus with 2 samples.

Results

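The amyloid precursor family and its secretases were followed here as 9 genes, matched by symbol to the deposited tables. They were the precursor genes App, Aplp1 and Aplp2, the β-secretase gene Bace1, the α-secretase gene Adam10 and the γ-secretase genes Psen2, Ncstn, Aph1a and Psenen. All 9 were found among 55536 annotated mouse genes. The series holds 2 total RNA-seq libraries, labelled biological replicates 1 and 2 of a single group, taken from hippocampal tissue of B6CASTF1/J males aged 36 days, with 300 ng of RNA and ERCC spike-ins in each. The tissue label speaks of a layer of the hippocampus without naming one. The mice are hybrids of a C57BL/6 and a CAST parent, no treatment or mutation is given, and both libraries carry the same donor identifier with different sample identifiers. With 1 group there is no comparison of conditions, and the libraries show the level, the transcript make-up and the spread of each gene in this tissue.

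App encodes the transmembrane protein from which amyloid beta is cut, and Aplp1 and Aplp2 encode relatives that share its extracellular and cytoplasmic parts but lack the amyloid beta stretch. Cleavage by an α-secretase, chiefly ADAM10 in neurons, falls inside amyloid beta and precludes its release. Cleavage by the β-secretase BACE1 instead exposes its amino end, after which γ-secretase cuts within the membrane. γ-Secretase is a complex of a presenilin, which holds the catalytic site, with nicastrin, APH1 and PEN-2, the product of Psenen. BACE1 and γ-secretase also process many other neuronal membrane proteins.

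The libraries held 28786216 expected counts in replicate 1 and 29755033 in replicate 2, of which 0.421% and 0.408% were ERCC transcripts. An expected count is the number of reads assigned to a gene after reads that match several genes are divided among them. Levels below are in TPM, a relative abundance that corrects for transcript length, so genes can be set against each other. All 9 excitatory hippocampal neuron markers examined reached 1 TPM in both libraries, and 4 liver markers summed to 0.09 and 0.08 TPM in replicates 1 and 2. The libraries differed in choroid plexus markers, whose 12 genes summed to 63.6 TPM in replicate 1 and 272 in replicate 2.

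The precursor genes were far more abundant than any of the secretase genes. App, on chromosome 16 (chr16:84949685-85173766, minus strand, mm10), had 498 TPM in replicate 1 and 458 in replicate 2, from 32194 and 30980 counts. Aplp1, the family member expressed mainly in the nervous system, had 498 and 492 TPM (chr7:30434982-30445535, minus strand). App and Aplp1 ranked 63 and 61 by mean TPM among 22028 protein-coding genes. Their values overlapped between the libraries, so that no order can be given between them. Aplp2, the most widely expressed of the relatives, had 183 TPM in replicate 1 and 174 in replicate 2 (chr9:31149557-31211815, minus strand). App was 2.72 times Aplp2 in replicate 1 and 2.63 times in replicate 2. Together the 3 precursor genes came to 1151 ± 38.7 TPM (SD, n = 2). In bulk tissue, fewer cells of a type and less RNA per cell cannot be told apart.

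**Figure D1:**
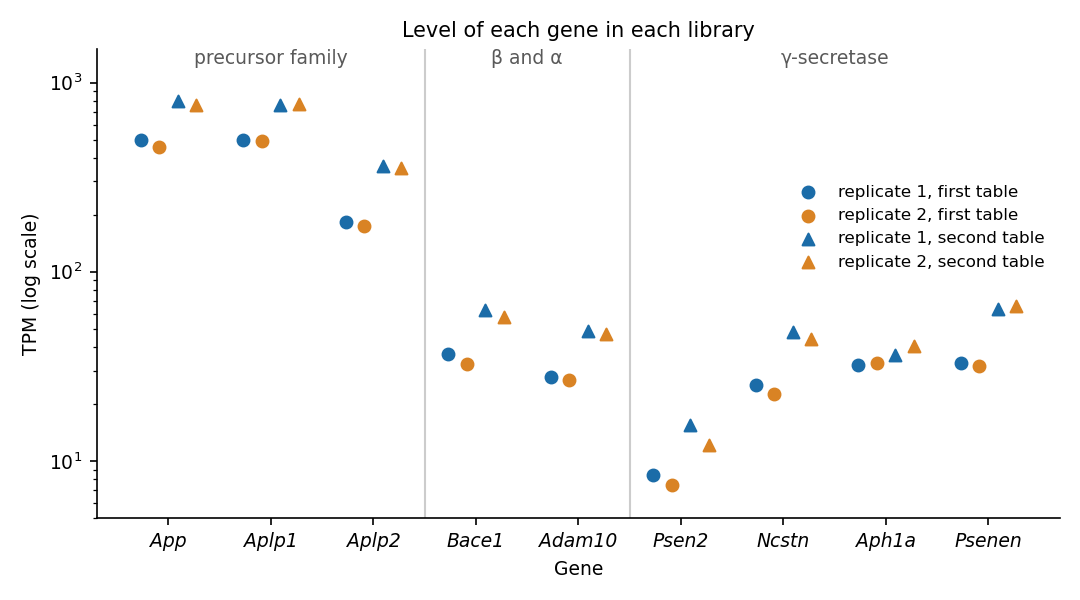
TPM (log scale) of the 9 genes in replicate 1 (blue) and replicate 2 (orange), with circles for the gene and first transcript tables and triangles for the second transcript table. The precursor genes sit highest in both tables, and Psen2 sits lowest at 8.46 and 7.44 TPM in the first table and 15.4 and 12.1 TPM in the second.

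App splicing decides whether the protein carries a Kunitz protease inhibitor (KPI) domain. Transcripts are named and their exons numbered as in GENCODE M21, counting from exon 1 at the start of App-206, the model with every coding exon. App-201, which lacks exons 7 and 8 and encodes the 695-residue form known as the neuronal one, made up 91.6% of App in replicate 1 and 89.8% in replicate 2. Those shares came from the first transcript table, in which reads were divided among transcripts after alignment to the transcriptome. In the second table, which was made from the reads and a transcript index, App-201 had 89.9% and 86.8%. It was the leading transcript in both libraries of both tables. The bases that carry these differences are shown from the GENCODE M21 transcripts, 5′ to 3′, with the alternative exon in capitals and 12 flanking bases in lower case, as they stand in App-202, App-203 and App-206. Exon 7, the KPI exon, lies at chr16:85043576-85043743 and exon 8, the OX-2 exon, at chr16:85040251-85040307.
App exon 7: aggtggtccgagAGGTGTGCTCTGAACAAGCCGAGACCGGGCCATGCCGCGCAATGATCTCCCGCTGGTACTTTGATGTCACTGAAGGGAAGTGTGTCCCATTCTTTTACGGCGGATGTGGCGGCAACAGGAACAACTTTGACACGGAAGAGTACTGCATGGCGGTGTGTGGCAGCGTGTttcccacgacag
App exon 8: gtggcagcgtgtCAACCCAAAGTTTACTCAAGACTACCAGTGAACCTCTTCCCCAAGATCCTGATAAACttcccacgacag
App exon 15: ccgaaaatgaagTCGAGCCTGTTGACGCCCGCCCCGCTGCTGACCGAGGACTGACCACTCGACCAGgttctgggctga
Without exons 7 and 8, App-201 joins the flanks into the following junction, all of it in lower case.
App junction: aggtggtccgagttcccacgacag

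Exons 7, 8 and 15 of App are 168, 57 and 54 bases long, each a multiple of 3, so that leaving them out keeps the reading frame. Among transcripts that hold both neighbours, exon 6 and exon 9, those with the KPI exon took 7.30% of TPM in replicate 1 and 8.63% in replicate 2. The second table gave 9.18% and 10.2%. The OX-2 exon was in 3.17% and 3.63% by the first table, and in 4.32% and 4.59% by the second. KPI-bearing transcripts thus summed to 35.9 and 38.8 TPM, against 456 and 411 TPM for App-201. Of the KPI-bearing forms, App-202 (751 codons, KPI without OX-2) had 4.07% and 4.92% of App in the first table. App-206 (770 codons, KPI and OX-2) had 1.74% and 1.85%, and App-203 (752 codons, both exons but no exon 15) had 1.30% and 1.52%. App-206 is 8167 bases long, with a last exon of 5748 bases where that of App-201 has 990, so its estimate draws on reads that say nothing of exons 7 and 8. Exon 15, at chr16:84971408-84971461, is left out of the L-APP forms, in which the new junction makes a chondroitin sulphate attachment site. It was in 98.7% and 98.4% of TPM by the first table and in 97.9% and 97.6% by the second.

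Nearly all App transcripts carried the sequence that the β- and γ-secretases release. Amyloid beta is encoded across 2 exons, 16 and 17 (within chr16:84962722-84965770), which supply 51 and 75 of the 126 bases of its 42-residue form. These are codons 597 to 638 of App-201, shown in capitals with 12 flanking bases. The lower-case bases on the left hold the codons at the β-secretase site.
App amyloid beta: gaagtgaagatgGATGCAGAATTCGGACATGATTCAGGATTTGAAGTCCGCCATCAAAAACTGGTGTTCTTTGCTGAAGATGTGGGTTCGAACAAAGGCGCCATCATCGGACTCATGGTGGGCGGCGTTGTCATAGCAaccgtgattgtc
Transcripts with both exons took 98.8% of App in replicate 1 and 98.4% in replicate 2 by the first table, and 98.7% and 98.5% by the second. The 1 coding transcript without them, App-207, had 0.07% and 0.08% in the first table.

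Aplp2 also has a KPI exon, and its transcripts divided differently from those of App. Its exon 7 lies at chr9:31167561-31167728, and it matches the App KPI exon in length, 168 bases, and at 114 of the 168 positions (67.9%) when laid side by side without gaps. A second alternative exon, of 36 bases, lies at chr9:31156190-31156225 and is exon 13 of Aplp2-202; leaving it out makes a chondroitin sulphate attachment site.
Aplp2 exon 7: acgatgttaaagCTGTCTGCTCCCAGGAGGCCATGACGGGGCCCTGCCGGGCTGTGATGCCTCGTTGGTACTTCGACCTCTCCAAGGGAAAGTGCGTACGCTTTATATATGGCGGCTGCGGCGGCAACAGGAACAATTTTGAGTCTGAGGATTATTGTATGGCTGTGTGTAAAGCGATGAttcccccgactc
Aplp2 exon 13: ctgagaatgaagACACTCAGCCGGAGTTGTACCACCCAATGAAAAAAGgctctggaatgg
Transcripts with the Aplp2 KPI exon took 58.0% of TPM in replicate 1 and 61.3% in replicate 2 among those with both neighbouring exons, and 65.9% and 68.5% in the second table. The App and Aplp2 shares did not overlap in any library or table, and with 2 libraries no test was made of the difference. The Aplp2 value depends on Aplp2-203, an incomplete model that carries the KPI exon and ends early. With complete coding models alone the share was 44.4% and 46.0% by the first table and 35.9% and 37.5% by the second, still above the App values with the same restriction (7.26% and 8.52%, then 9.05% and 10.1%).

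By transcript, Aplp2-202 (707 codons, no KPI, with the 36-base exon) led in the first table with 30.3% of Aplp2 in replicate 1 and 28.2% in replicate 2. Aplp2-201 (751 codons, KPI, without the 36-base exon) had 24.18% and 23.97%, and Aplp2-203 had 17.7% and 20.6%. Aplp2-203 led in the second table with 28.9% and 30.2%, ahead of Aplp2-202 with 21.1% and 19.2% and Aplp2-201 with 11.8% and 11.6%. Retained-intron models made up much of the rest. Aplp2-207 had 14.35% and 13.95% in the first table and 17.1% and 18.1% in the second, and Aplp2-208 had 4.83% and 5.03%, then 10.04% and 9.49%. Aplp2-209, the model with neither alternative exon, was at 0 in both tables. The share with the 36-base exon, 55.63% and 54.02% by the first table and 64.1% and 62.5% by the second, is Aplp2-202 against Aplp2-201 alone. It leaves out Aplp2-203, whose model carries the 36-base exon and ends with it. With complete models the KPI share rests on the same pair of transcripts, so that the measures are not separate. Aplp1 has 1 coding model, Aplp1-201 of 654 codons, and it took 96.49% and 97.01% of the gene in the first table and 98.9% and 98.8% in the second.

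**Figure D2:**
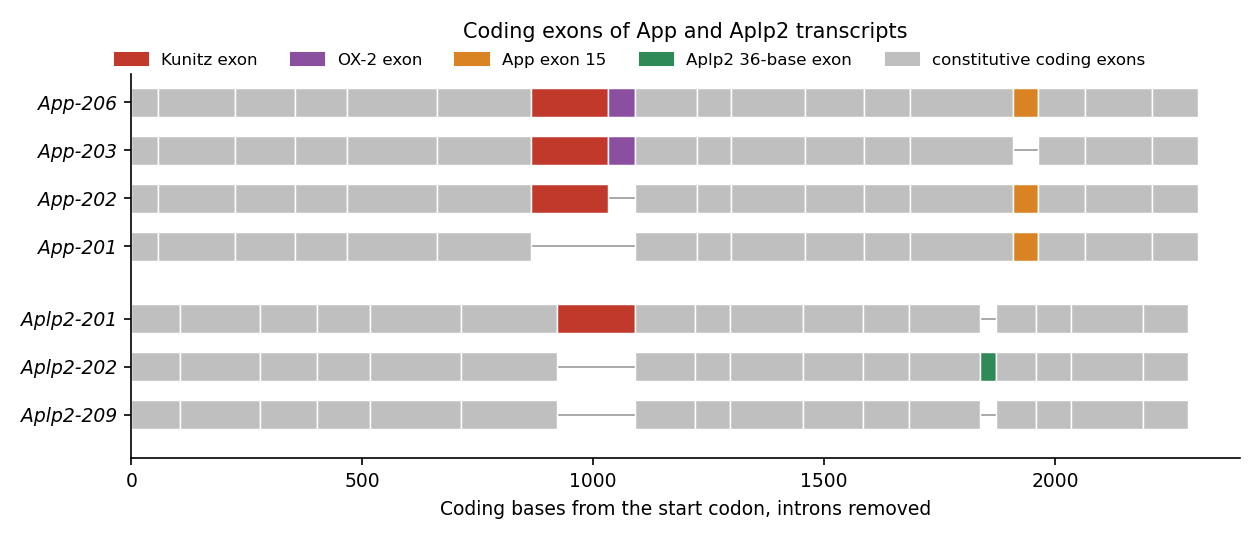
Coding exons of 4 App models and 3 Aplp2 models drawn to scale in bases with introns removed, grey where constitutive and coloured where alternative; a thin line marks an exon that the model lacks. App-201 lacks both the 168-base KPI exon and the 57-base OX-2 exon, and Aplp2-202 lacks the KPI exon but has the 36-base exon.

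Bace1, the β-secretase that makes the first amyloidogenic cut, had 36.8 TPM in replicate 1 and 32.6 in replicate 2 (chr9:45838580-45864399, plus strand), from 3182 and 3156 counts. App was 13.5 times Bace1 in replicate 1 and 14.1 times in replicate 2. Bace2, the relative that cleaves App mainly elsewhere, had 1.86 and 1.36 TPM from 82 and 89 counts. A pair of coding transcripts shared most of Bace1. Bace1-201 (501 codons) had 40.8% and 44.6% in the first table and 29.2% and 33.1% in the second. Bace1-202 (467 codons) had 37.9% and 38.5%, then 35.1% and 32.6%, and was the leading transcript in replicate 1 of the second table. The incomplete coding model Bace1-206 had 11.2% and 9.81%, then 21.6% and 13.1%, and the retained-intron model Bace1-204 had 4.98% and 7.05%, then 14.1% and 21.2%.

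The coding sequences of Bace1-201 and Bace1-202 differ by exon 6, of 102 bases. It encodes one of the paired active-site motifs of this aspartic protease. Exon 6 lies at chr9:45858400-45858501 and is shown in capitals. The motif of the second catalytic aspartate, at codon 289 of Bace1-201, is GACAGTGGGACC within it, and the motif of the first, at codon 93, lies outside it.
Bace1 exon 6: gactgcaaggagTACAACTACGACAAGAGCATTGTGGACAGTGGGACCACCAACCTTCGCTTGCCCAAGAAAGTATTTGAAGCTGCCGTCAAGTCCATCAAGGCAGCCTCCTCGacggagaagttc
Bace1 junction: gactgcaaggagacggagaagttc
The second line is the junction of Bace1-202, which keeps the reading frame and lacks the motif. Transcripts with exon 6 took 60.1% of TPM in replicate 1 and 61.5% in replicate 2 among those with exons 5 and 7, and 64.9% and 67.4% in the second table. With complete coding models alone, which leaves Bace1-201 against Bace1-202, the share was 51.8% and 53.6%, then 45.4% and 50.4%. The last exon has 4346 bases in Bace1-201 and 2431 in Bace1-202, so these shares also draw on reads that say nothing of exon 6. Bace1 exons overlap those of Rnf214 on the opposite strand over 975 bases, and those of the gene model Gm49338 over 951 bases. Rnf214 had 1702 and 1710 counts and Gm49338 had 341 and 350. No source used here gives the strand setting of the counting, and reads in the overlap cannot be assigned with certainty.

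Adam10, the main α-secretase of neurons, had 27.8 TPM in replicate 1 and 26.7 in replicate 2 (chr9:70678997-70780229, plus strand), from 2305 and 2390 counts. Bace1 was 1.33 times Adam10 in replicate 1 and 1.22 times in replicate 2, and 1.29 and 1.23 times in the second table. The other α-secretase candidates were lower. Adam9 had 17.2 and 17.8 TPM, and Adam17, the sheddase known for releasing tumour necrosis factor, had 10.6 and 6.49 TPM. The counts of Adam17, 504 and 495, did not differ in that way, and its second-table TPM was 10.4 and 10.2.

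A transcript marked for nonsense-mediated decay (NMD), which degrades RNAs with an early stop codon, took a share of Adam10. Adam10-202 starts exon 12 at a later acceptor site and so lacks 26 bases of Adam10-201, a length that is not a multiple of 3. These bases, at chr9:70766872-70766897, are in capitals.
Adam10 exon 12 part: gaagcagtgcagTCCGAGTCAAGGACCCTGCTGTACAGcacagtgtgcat
Adam10-201 (749 codons) had 76.2% of the gene in replicate 1 and 84.4% in replicate 2 by the first table, and 60.8% and 69.2% by the second. Adam10-202 had 23.33% and 13.02%, then 34.8% and 30.8%. Its counts in the first table were 349 and 197, with posterior standard deviations of 56.2 and 49.6. Its share was thus known only roughly in either library. The last exon has 383 bases in Adam10-202 and 2230 in Adam10-201, so the shares also draw on reads that say nothing of exon 12.

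Psen2 was the lowest of the 9 genes. It encodes a presenilin, the catalytic subunit of γ-secretase, and it had 8.46 TPM in replicate 1 and 7.44 in replicate 2 (chr1:180227004-180263438, minus strand), from 301 and 276 counts. Psen2-204 and Psen2-205, transcripts with the same 448 codons and different first exons, could not be told apart by these tables. In the first table Psen2-205 had 70.9% and 71.7% and Psen2-204 was at 0. The second table gave Psen2-205 0.12% and 52.9%, and Psen2-204 61.3% and 23.3%. Their sum moved less, at 70.9% and 71.7% in the first table and 61.4% and 76.1% in the second. The retained-intron models Psen2-212, Psen2-211 and Psen2-206 had at most 13.4% of the gene each.

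Ncstn encodes nicastrin, the large glycoprotein that gates substrates of γ-secretase. It had 25.3 TPM in replicate 1 and 22.6 in replicate 2 (chr1:172066013-172082795, minus strand), from 1176 and 1123 counts. Its 1 coding transcript, Ncstn-201 (708 codons), took 72.8% and 75.4% in the first table and 53.4% and 58.2% in the second. The short retained-intron models Ncstn-203 and Ncstn-205 together had 20.1% and 17.7%, then 33.3% and 31.0%. Ncstn exons overlap those of Copa on the opposite strand over 195 bases, and Copa had 4963 and 5056 counts.

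Aph1a encodes the main APH1 scaffold subunit. It had 32.3 TPM in replicate 1 and 33.0 in replicate 2 (chr3:95893969-95898288, plus strand), from 955 and 1099 counts. Some of its reads were shared with other genes, with posterior standard deviations of 21.6 and 10.3 counts. The paralogs Aph1b and Aph1c had 13.7 and 13.6 TPM and 2.99 and 3.30 TPM, and as near-identical copies they may trade reads. Aph1a transcripts end in alternative ways. Aph1a-202 (265 codons) splices the last intron and led in both tables, with 41.3% and 54.3% in the first and 58.9% and 66.5% in the second. Aph1a-201 (247 codons) reads through that intron and had 19.3% and 16.7%, then 26.5% and 19.4%, and the retained-intron model Aph1a-204 had 8.88% and 9.06%, then 14.6% and 14.1%. Of the transcripts that either splice or span the last intron, Aph1a-202 took 59.4% of TPM in replicate 1 and 67.9% in replicate 2 by the first table. The second table gave 58.9% and 66.5%. Aph1a-201 ends at chr3:95898288 and Aph1a-202 at chr3:95897445, so these shares also draw on reads that say nothing of the intron. Aph1a-203, an incomplete model of 286 bases, had 30.6% and 20.0% in the first table from 37.9 and 26.6 counts and was at 0 in the second. Aph1a exons overlap those of Car14 on the opposite strand over 445 bases, and Car14 had 134 and 136 counts.

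Psenen encodes PEN-2, the smallest subunit, of 101 codons, which completes the complex and triggers presenilin maturation. It had 33.0 TPM in replicate 1 and 31.6 in replicate 2 (chr7:30561863-30563627, minus strand), from 382 and 395 counts. It lies 116 kb from Aplp1 on chromosome 7. Psenen-201 and Psenen-203 encode the same 101 codons and differ at the 5′ end. Psenen-201 led in the first table with 67.5% and 78.6%, against 21.8% and 13.6% for Psenen-203. Psenen-203 led in the second table with 57.7% and 57.5%, beside 40.1% and 38.6% for Psenen-201. Psenen exons overlap U2af1l4 by 119 bases on the opposite strand, a gene with 394 and 414 counts. They also overlap Gm49396 on that strand by 111 bases, a gene with 279 and 271 counts. Some Psenen reads were shared with other genes.

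Set side by side in the first table, Psenen, Aph1a and Ncstn lay close together, and Psen2 lay below them. Psenen was 1.31 times Ncstn in replicate 1 and 1.40 times in replicate 2, and Aph1a was 1.28 and 1.46 times Ncstn. In the second table Aph1a was instead 0.757 and 0.916 times Ncstn, so the order of these subunits depends on the table. The range was also wider there, with means of 64.8 TPM for Psenen and 38.3 TPM for Aph1a. The first-table Aph1a level includes 9.86 and 6.59 TPM, in replicates 1 and 2, from the incomplete model Aph1a-203. That model had 37.9 and 26.6 counts and was at 0 in the second table. The summed APH1 genes below include it too. The first table had 7.95 ± 0.721 TPM for Psen2, 49.4 ± 0.587 TPM for the summed APH1 genes, 23.9 ± 1.89 TPM for Ncstn and 32.3 ± 1.00 TPM for Psenen (SD, n = 2 each). The Psen2 value is that of a single gene and not a sum over presenilin genes, unlike the APH1 value. These are RNA levels and give no stoichiometry of the complex.

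The leading transcript was the same in both libraries and both tables for 5 of the 9 genes, namely App, Aplp1, Ncstn, Aph1a and Adam10. It was the same in both libraries of the first table for all 9 genes and in both libraries of the second for 7. For Psen2 and Psenen the transcripts that changed places encode the same protein, whereas for Aplp2 and Bace1 they do not. Of 65 annotated transcripts of the 9 genes, 27 reached 10% of their gene in some library and table. These were 17 coding models, 9 retained-intron models and 1 NMD model. Retained-intron models took 0.50% to 27.8% of the 9 genes in replicate 1 and 0.98% to 27.2% in replicate 2 of the first table, with medians of 4.97% and 7.06%. Over 7436 protein-coding genes with such a model and at least 1 TPM in both libraries, the medians were 13.2% and 12.9%. In the second table the medians were 14.1% and 14.1% for the 9 genes and 13.8% and 13.5% over 7816 genes. There the shares of the 9 genes ran from 0.51% to 39.0% in replicate 1 and from 0% to 39.0% in replicate 2. Aplp2, Psen2 and Ncstn had the highest shares, and App, Aplp1, Psenen and Adam10 the lowest, in both tables.

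**Figure D3:**
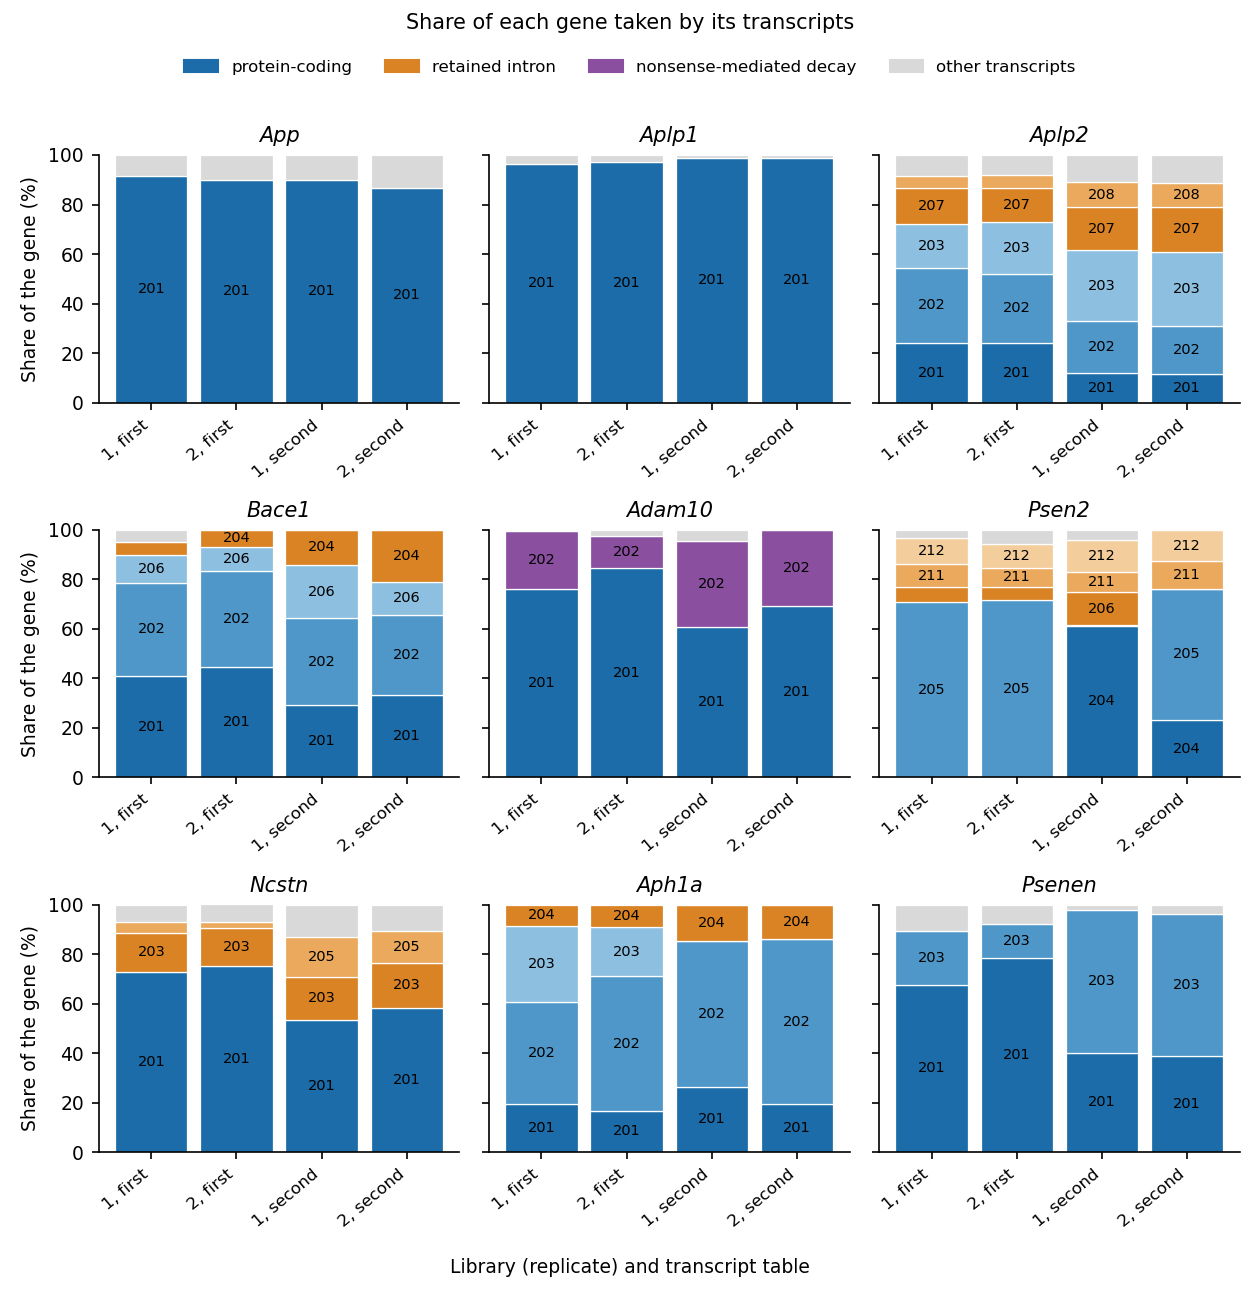
Share of each gene (%) taken by its transcripts in replicates 1 and 2 of the first and second transcript tables; blue marks coding models, orange retained introns, purple nonsense-mediated decay and grey all transcripts under 10%, and the numbers are transcript suffixes. App-201 and Aplp1-201 dominate in every bar, whereas the leading segment changes for Aplp2, Bace1, Psen2 and Psenen.

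**Figure D4:**
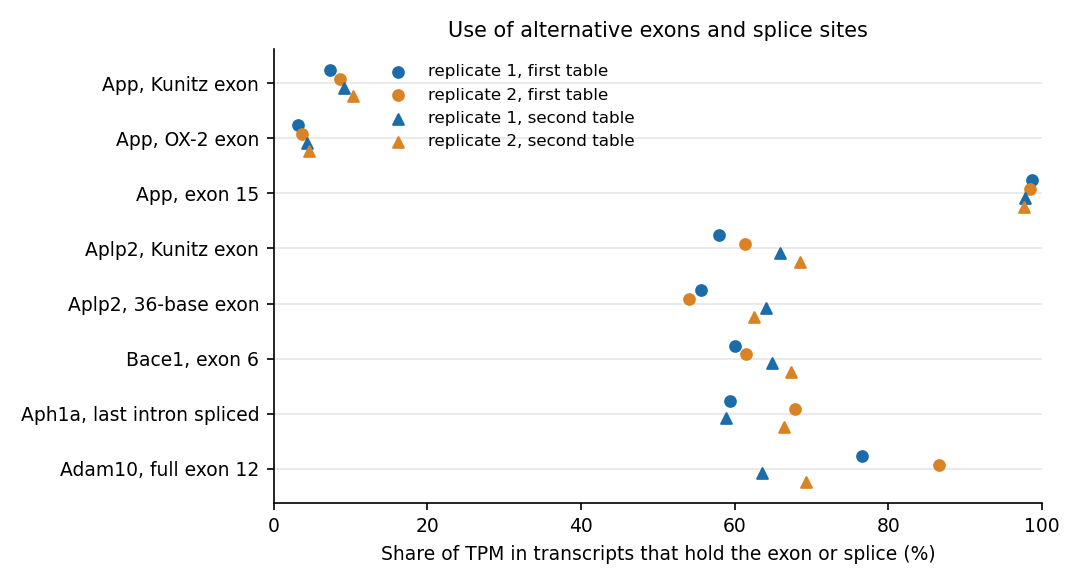
Share of TPM (%) in transcripts that hold each alternative exon or splice, among transcripts that can be assigned, for replicate 1 (blue) and replicate 2 (orange) in the first (circles) and second (triangles) transcript tables. The App KPI exon sits between 7.30% and 10.2%, and the Aplp2 KPI exon between 58.0% and 68.5%.

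Ordered by mean TPM in the first table, the genes ran Aplp1, App, Aplp2, Bace1, Aph1a, Psenen, Adam10, Ncstn and Psen2. Of the 8 neighbouring pairs, 3 had values that overlapped between the libraries, namely Aplp1 with App, Bace1 with Aph1a, and Aph1a with Psenen. The clearest steps were 5.14 times from Aplp2 down to Bace1 and 3.01 times from Ncstn down to Psen2. In the second table the order was App, Aplp1, Aplp2, Psenen, Bace1, Adam10, Ncstn, Aph1a and Psen2, and the overlapping pairs were App with Aplp1 and Adam10 with Ncstn. The level itself differed between the tables. Protein-coding genes held 44.9% and 43.8% of the TPM in the first table and 78.7% and 78.5% in the second. The first table over the second gave 0.625 and 0.603 for App, close to the median of 0.599 and 0.587 over protein-coding genes. The same ratio was 0.507 and 0.495 for Aplp2, and 0.890 and 0.816 for Aph1a. The first-table level of Aph1a includes the incomplete model Aph1a-203, which was at 0 in the second table.

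None of the 9 genes stood apart between the libraries. Rounded counts were compared, replicate 1 over replicate 2, by a two-sided exact binomial test, with library sizes scaled by TMM. A gene was called apart at a Benjamini-Hochberg adjusted p under 0.05 and a ratio of at least 1.5. Over all 18270 genes tested, 346 were apart (1.89%), so that 0 of 9 is near this background. This test compares the libraries and not conditions, and its p-values measure only counting error between them. The largest ratios were those of the least counted gene, Psen2, at 1.12 (95% interval 0.949 to 1.33), and of Aph1a, at 0.894 (0.819 to 0.976, adjusted p = 0.082 in the exact binomial test).

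Without the minimum ratio, 2 of the 9 genes passed, against 2078 of 18270 genes (11.4%). App was higher in replicate 1, with 32194 counts against 30980 in replicate 2, a ratio of 1.07 (1.05 to 1.09, adjusted p = 7.9e-15 in the exact binomial test). Aplp2 was higher as well, with a ratio of 1.04 (1.01 to 1.07, adjusted p = 0.034 in the exact binomial test). Which genes pass at this size depends on the scaling: with ERCC totals Aplp2 did not pass (adjusted p = 0.58 in the same exact test), whereas Aplp1 (log2 ratio -0.05, adjusted p = 0.0012) and Aph1a (log2 ratio -0.20, adjusted p = 0.017) did, both higher in replicate 2. The interval of Psen2, from 301 and 276 counts, is too wide to show a difference of that size. At an unadjusted p under 0.05 there were 3 of 9, the third being Aph1a, against 3977 of 18270 genes (21.8%). The median absolute log2 ratio was 0.06 for the 9 genes, 0.11 for all genes tested and 0.08 for those with a mean of at least 100 counts. Choroid plexus markers moved with the libraries, 9 of the 11 tested being apart and all 9 higher in replicate 2 (1.23% of all genes tested). Also apart were 2 of 6 meninges markers, 1 higher in each library, and 1 of 6 oligodendrocyte markers, higher in replicate 1. Over all genes tested, 1.89% were apart in either direction. Of 6 meninges markers, 5 passed without the minimum ratio, 4 of them higher in replicate 2, and the list summed to 246 TPM in replicate 1 and 388 in replicate 2. Of 6 oligodendrocyte markers 4 passed, and of 6 interneuron markers 2, all higher in replicate 1 (4.73% of all genes tested). Of 6 astrocyte markers 3 passed, all higher in replicate 2 (6.64% of all genes tested). Of 6 endothelium markers 3 passed, 2 of them higher in replicate 1, and of 6 microglia markers 0 passed. Of 9 excitatory neuron markers 5 passed. The dentate gene Prox1 (32.9 and 45.1 TPM in replicates 1 and 2) and Camk2a (1347 and 1414 TPM) were lower in replicate 1. Neurod6 (76.3 and 65.3 TPM), Wfs1 (73.4 and 61.95 TPM) and Fibcd1 (49.9 and 41.7 TPM) were higher there. The part of these markers in the ratios of the 9 genes was not tested.

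**Figure D5:**
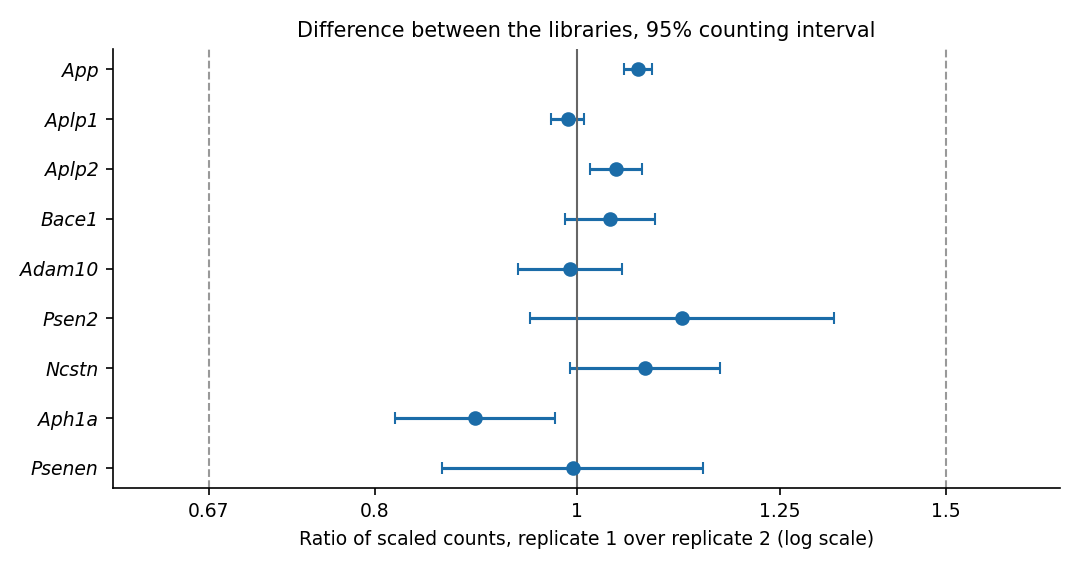
Ratio of scaled counts, replicate 1 over replicate 2 (log scale), for the 9 genes with 95% counting intervals; the solid line marks equal levels and the dashed lines a 1.5-fold difference either way. Every interval lies inside the dashed lines, and the widest is that of Psen2, from 0.949 to 1.33.

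Other genes of the pathway were all detected, with 48 of 48 at 1 TPM or more in both libraries, and 0 of 48 were apart between them. Without the minimum ratio 9 of 48 passed, 8 higher in replicate 1 (4.73% of all genes tested) and 1, Apba3, higher in replicate 2 (6.64% of all genes tested), and 19 of 48 had an unadjusted p under 0.05 in the exact binomial test, against 21.8% of all genes tested. The median log2 ratio of the 48 was 0.02, beside 0.00 over all genes tested.

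Among γ-secretase and App regulators, Itm2b, a membrane protein that binds App and hinders its processing, was highest at 396 and 389 TPM, and Gsap, reported to modulate γ-secretase, was lowest at 3.01 and 3.41 TPM. Of the sorting and endocytosis genes, Sort1, a sorting receptor of the sortilin family, was highest at 144 and 137 TPM, and its relative Sorcs1 was lowest at 4.23 and 3.88 TPM. Of the adaptors that bind the App cytoplasmic tail or link it to motors, the kinesin light chain gene Klc1 was highest at 276 and 266 TPM, and Apba3 was lowest by its mean, at 17.2 and 22.2 TPM, though above Appbp2 (20.9 and 20.9 TPM) in replicate 2. Amyloid-degrading enzymes were modest. Ece1, an endothelin-converting enzyme, had 25.5 and 22.7 TPM, and Mme, which encodes neprilysin, had 2.58 and 2.15 TPM. Among other BACE1 substrates, the adhesion gene Nrcam was highest at 228 and 210 TPM, and Nrg1, the neuregulin whose cleavage drives myelination of peripheral nerves, was lowest at 4.56 and 3.74 TPM. In this list 5 of 10 genes passed without the minimum ratio, all higher in replicate 1, beside 4.73% of all genes tested. Among genes with a mean of at least 100 counts, 779 of 12541 passed and were higher in replicate 1. Whether a ratio passes depends on the number of reads of a gene, and no background matched for reads was computed. Oligodendrocyte and interneuron markers that passed were higher in the same library. So were 3 of the 5 excitatory neuron markers and 2 of the 3 endothelium markers that passed. Astrocyte and choroid plexus markers that passed were higher in replicate 2. The part of these markers in this count was not tested.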

How the data were processed

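RNA-seq was made from 2 hippocampus libraries. Per the file headers, the authors deposited a gene table and a first transcript table with expected counts, TPM, posterior standard deviations and percent of gene (the columns RSEM writes), and a second transcript table with estimated counts and TPM (those kallisto writes). Neither program versions nor a strand setting is given in the sources used here. The build is mm10 with GENCODE M21, per the submitters' processing notes. The reference is C57BL/6J, so CAST alleles are not represented.

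From these files, counts were rounded and the libraries set side by side, replicate 1 over replicate 2, with an exact binomial test (SciPy 1.17.1) on TMM sizes (edgeR 4.0.16). Benjamini-Hochberg adjustment ran over genes with a mean of at least 10 counts, and 0.5 was added for ratios. The test was checked on simulated Poisson counts with known ratios. Such counts hold no spread beyond counting error, so the check says nothing of other spread in these libraries. Clopper-Pearson intervals cover counting error only, and no spread between animals, dissections or library preparations. PCR copies were not marked by molecular identifiers. ERCC and other rows that name no mouse gene, 0.421% and 0.408% of counts, stayed out of sizes and tests. Second-table gene TPM is the sum over transcripts, and exon shares are sums over models. Alternatives were DESeq2 size factors (1.42.0), total and spike-in scaling, other filters, the second table and leaving out a library. The genes, lists and tests were chosen with earlier results of these data known. The text names all 9 genes, their transcripts with at least 10% of a gene, the other secretase genes except 1 that is not reported here and, of each other list, the genes with the highest and lowest TPM.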

Additional observations from a re-analysis of the deposited data

How the results depend on the processing

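Counts of members apart (0) and of other pathway genes apart (0) were the same with DESeq2 size factors, total or spike-in scaling, no filter, a minimum of 100 counts and the second table. Without the minimum ratio they were 2 and 9. The log2 ratio changed sign when taken on TPM for Aplp1 (0.018, against -0.015 on counts), Psenen (0.063, against -0.0077) and Adam10 (0.056, against -0.012), none of which passed with TMM sizes, and the cause was not tested. Spike-in scaling lowers every log2 ratio by 0.038 and changed which members passed without the minimum ratio: App still passed, Aplp2 did not (0.023, adjusted p = 0.58), and Aplp1 (-0.053, adjusted p = 0.0012) and Aph1a (-0.20, adjusted p = 0.017) did. Mean TPM moved by more than the spread between libraries for all 9 genes in the second table and when rescaled to protein-coding genes. Leading transcript shares moved for all 9 in the second table, furthest for Psen2-205, to 26.5% from 71.3%. The 5 genes with an unchanged leading transcript remained 5 in number with coding transcripts alone. Neighbours with overlapping TPM were 2 pairs, not 3, in the second table and after rescaling. Leaving out either of 2 libraries cannot move a mean by more than the spread. Splicing shares under other settings were chosen after seeing the data. No paired analysis was possible because there is 1 group. Depth limits Psen2 and Psenen most.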
